A study of Mus musculus with 5 samples.

Results

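Ncl, Npm1, Fbl, Nop56, Nop58, Dkc1, Nolc1, Nhp2, Gnl3 and Polr1b encode proteins that work in the nucleolus, and their ribosome-protected reads were examined in mouse embryonic stem cells (mESCs). The 10 genes were chosen by symbol and transcript type: in the deposited table of 135276 transcripts they have 35 annotated as protein_coding, out of 21849 genes with such a transcript. For each gene the protein_coding transcript with the highest mean level over all libraries gave the main value. Ribosome profiling sequences the pieces of mRNA that ribosomes shield from an RNase, here RNase I, so a read count reflects ribosomes on a transcript. The cells were grown with serum and LIF, treated with cycloheximide, which halts elongation, and lysed. In standard RIBO-seq (3 libraries, replicates 1 to 3) 80S ribosomes were pelleted through sucrose. In AHARIBO RIBO-seq (2 libraries, replicates 1 and 2) nascent peptides containing L-azidohomoalanine (AHA), an analogue of methionine, were linked to biotin and pulled down on magnetic beads together with their ribosomes. The labels describe all 5 samples as untreated biological replicates. The study's methods describe methionine depletion and AHA feeding before the pull-down, and the study describes its standard RIBO-seq in these cells as made from the input of the pull-down. The methods for ribosome profiling name cycloheximide and do not say whether the cells of the standard libraries were fed AHA, so a difference in purification and one in feeding cannot be told apart here.

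The nucleolus is where ribosomal RNA is transcribed, modified, cut and joined with ribosomal proteins. Polr1b is a large subunit of RNA polymerase I, which transcribes the rRNA precursor. Fbl (fibrillarin) is the methyltransferase of box C/D snoRNPs, the particles that methylate rRNA, and Nop56 and Nop58 are the scaffold proteins of the same particles. Dkc1 (dyskerin) is the pseudouridine synthase of box H/ACA snoRNPs and Nhp2 one of their core proteins, while Nolc1 (Nopp140) is a chaperone that binds both kinds of particle. Ncl (nucleolin) and Npm1 (nucleophosmin) are abundant nucleolar proteins with many partners in early and late ribosome assembly. Gnl3 (nucleostemin) is a nucleolar GTPase known from stem cells. Several of these genes also carry snoRNAs, the guide RNAs of the particles, inside their introns.

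Because AHA enters a peptide in place of methionine, the places of the methionine codons in these mRNAs are shown first. The first 20 codons of the main transcript of 5 members follow, from Gencode M21 (GRCm38), 5′ to 3′, with in-frame ATG codons in capitals.
Npm1: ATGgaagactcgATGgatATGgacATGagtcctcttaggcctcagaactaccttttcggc
Ncl: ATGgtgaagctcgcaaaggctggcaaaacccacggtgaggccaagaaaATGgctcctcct
Gnl3: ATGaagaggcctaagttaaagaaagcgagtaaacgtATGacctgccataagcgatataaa
Nop56: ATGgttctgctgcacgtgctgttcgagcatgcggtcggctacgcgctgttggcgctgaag
Nolc1: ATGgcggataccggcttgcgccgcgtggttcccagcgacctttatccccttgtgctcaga
Npm1 has 4 ATG codons within this stretch, Ncl and Gnl3 have 2 each, and Nop56 and Nolc1 have only the start codon. The second ATG of the reading frame was codon 5 in Npm1, 13 in Gnl3 and 17 in Ncl. In Nop58 it was codon 64, in Nhp2 79, in Fbl 93, in Polr1b 140, in Nop56 167, in Dkc1 204 and in Nolc1 291. The median over 12216 tested genes with a complete coding sequence was codon 49. Nolc1 has 2 methionine codons among 702, or 0.285% of its codons, against a median of 2.13% over those genes, and only 0.0573% of them had a lower share. Polr1b stood at the other end of the members, with 43 of 1135 codons, or 3.79%. Lysine codons made up 10% or more of the coding sequence in 8 of the 10 members, Fbl (5.81%) and Polr1b (5.20%) being the exceptions, against a median of 5.66%.

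The counts over all transcripts added up to 6403651 to 11150527 per library after removal of duplicates, where a read can be counted under several transcripts, and 3 reads, the limit that a count of 0 allows, corresponded to 0.262 to 0.476 CPM (read counts scaled to a common library size). All 7 mESC markers listed were read in every library, Klf4 at the lowest level (60.4 to 81.7 CPM) and Pou5f1 at the highest (214 to 276 CPM). Their summed level was 1072 to 1139 CPM in standard and 986 to 1068 CPM in AHARIBO libraries, and Sox2 (log2 fold change -0.32) and Klf4 (-0.34) were lower in AHARIBO by edgeR's quasi-likelihood test with Benjamini-Hochberg adjustment, with adjusted p of 0.013 and 0.0084 (0.072 and 0.065 by DESeq2, not called). The 4 primitive endoderm markers summed to 3.94 to 7.30 CPM, the 4 fibroblast markers to 3.86 to 5.15 CPM, with Postn at 0 in 4 libraries, and the 4 neural markers to 39.5 to 43.9 CPM, most of it Tubb3. Of these 12 markers 10 passed the filter on low counts, and none of the 10 was called. The part of the marker differences in the results below was not tested.

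Among themselves the members spanned a wide range of levels. Per kb of transcript, Npm1 was highest at 175 ± 13.5 CPM per kb (SD, n = 5 libraries), followed by Fbl at 90.1 ± 6.34, Nop56 at 67.0 ± 1.33, Nhp2 at 60.8 ± 6.55, Ncl at 44.3 ± 3.16, Gnl3 at 31.0 ± 2.38, Nolc1 at 28.0 ± 1.13, Dkc1 at 20.5 ± 1.39, Polr1b at 12.7 ± 0.519 and Nop58 at 11.8 ± 0.687 CPM per kb. The highest stood 14.8 times above the lowest, and 39.4 times with duplicate reads kept, where the lowest was Polr1b and not Nop58. In these bulk samples more mRNA and more ribosomes per mRNA cannot be told apart, nor can more cells of a type and more RNA per cell. Neighbours in this order whose libraries overlapped were Nop56 and Nhp2, Gnl3 and Nolc1, and Polr1b and Nop58. All other neighbours were apart in all 5 libraries.

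The order depended on which length the reads were divided by. The main transcript of Nop58 is 9507 nt long with a coding sequence of 1608 nt, and that of Ncl is 8202 nt long with 2121 nt of coding sequence. Per kb of coding sequence, Ncl moved up to the second place at 171 ± 12.2 CPM per kb, behind Npm1 at 327 ± 25.2, and Nop58 from last to sixth at 69.9 ± 4.06 CPM per kb. By this measure the scaffold proteins Nop56 (72.3 ± 1.43 CPM per kb) and Nop58 overlapped, with Fbl above both at 110 ± 7.73 CPM per kb. Ncl and Nhp2, and Dkc1 and Gnl3, were the other overlapping neighbours in this order. The lowest was Polr1b at 14.9 ± 0.610 CPM per kb, 22.0 times below Npm1.

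**Figure D1:**
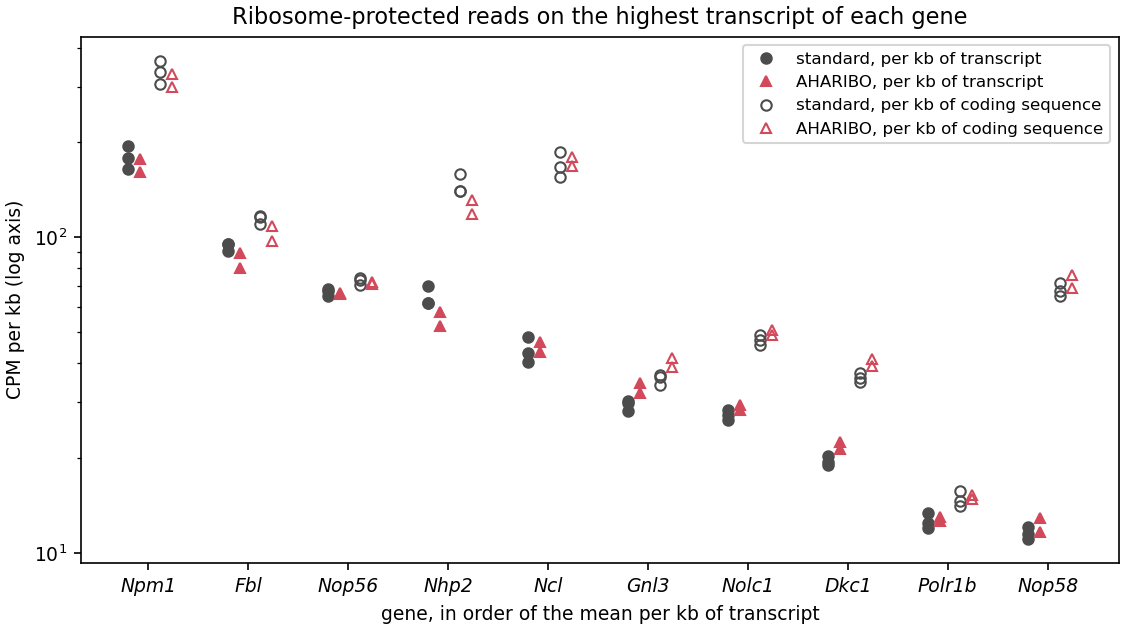
CPM per kb (log axis) on the main transcript of each of the 10 genes, 3 standard (circles) and 2 AHARIBO (triangles) libraries, filled for transcript length and open for coding length. The libraries of a gene lie close together compared with the span over the 10 genes, although some neighbours overlap. Ncl and Nop58 shift most between the lengths.

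A part of these levels rests on sequence that other transcripts share. Of the 30-nt windows in the coding sequence, 91.2% in Fbl, 86.7% in Npm1, 41.1% in Nop56 and 13.9% in Ncl also occur in the same orientation in transcripts of other genes, mostly processed pseudogenes. In Nhp2 the share was 8.60%, in Dkc1 4.81%, in Nolc1 4.57%, and in Nop58, Gnl3 and Polr1b 0%. The pseudogene Gm5812, a near copy of Fbl, was listed at 89.5, 94.3 and 97.4 CPM in the standard and 78.1 and 88.6 CPM in the AHARIBO libraries, beside 109, 114, 114, 95.7 and 107 CPM for Fbl itself. Gm9118, a copy of part of Npm1, was listed at 134 to 156 CPM. The values of Fbl and Npm1 therefore cannot be separated from those of their copies. The counts of all 93 transcripts of the 10 genes added up to 229127 over the 5 libraries, and those of the 10 main transcripts to 60557. A read that matches several transcripts therefore seems to be listed under each, although the counting rule is not given in the sources used here. STAR at default settings discards a read that maps to more than 10 places, and 29.5% of the coding windows of Nop56 occur in more than 10 transcripts, against 1.11% in Nolc1, 0.708% in Npm1 and 0% in the others. What this did to the level of Nop56 was not tested.

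Between the methods, none of the 10 members was called higher or lower in ribosome occupancy with duplicate reads removed. The reads on the members' main transcripts made up 0.472%, 0.451% and 0.498% of the reads on the main transcripts of all genes in the standard libraries and 0.473% and 0.496% in the AHARIBO libraries. These groups overlapped, with means of 0.474% ± 0.0234 (SD, n = 3) and 0.485% ± 0.0159 (SD, n = 2). The AHARIBO mean was 0.0110 percentage points higher, and 0.108 points higher with duplicate reads kept. The sign of the first difference turned when AHARIBO replicate 2 or standard replicate 2 was left out. By edgeR's quasi-likelihood test, with p-values adjusted over all 66972 transcripts tested by the Benjamini-Hochberg method, 0 of 10 members passed an adjusted p of 0.05, where 5.12% of the main transcripts of all genes did. At an unadjusted p of 0.05, 1 member was higher in AHARIBO (Gnl3) and 1 lower (Nhp2), where 9.86% and 9.53% of all main transcripts were, and DESeq2 also called 0. The median log2 fold change of AHARIBO over standard was 0.03 over the members and -0.0032 over all main transcripts. Approximate 95% intervals of the fold change of the 10 members all lay between 0.763 and 1.26. In 4 members the libraries of the methods did not overlap, Dkc1 and Gnl3 being higher and Fbl and Nhp2 lower in AHARIBO, and 34.3% of all main transcripts had no overlap.

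Polr1b (chr2:129100995-129126594), the polymerase I subunit, was read at 53.4, 49.6 and 48.1 CPM in the standard and 51.9 and 50.3 CPM in the AHARIBO libraries. Both AHARIBO values lay inside the standard range. The log2 fold change was 0.02 (SE 0.084, adjusted p = 0.94).

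None of the box C/D proteins was called. Fbl (chr7:28169710-28179269) was read at 109, 114 and 114 CPM in the standard and 95.7 and 107 CPM in the AHARIBO libraries. All standard values lay above both AHARIBO values, and the log2 fold change was -0.15 (SE 0.079, adjusted p = 0.29). Nop56 (chr2:130274430-130279313) gave 129, 123 and 127 CPM against 124 and 126 CPM, the narrowest spread of the 10 relative to its level (log2 fold change -0.02, SE 0.077, adjusted p = 0.94). For its partner Nop58 (chr1:59685009-59719044) the values were 115, 109 and 105 CPM in the standard and 111 and 122 CPM in the AHARIBO libraries, which overlapped (log2 fold change 0.08, SE 0.079, adjusted p = 0.61).

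The H/ACA proteins had fold changes of opposite sign, neither of them called. Dkc1 (chrX:75095854-75109777) rested at 53.2, 54.5 and 56.6 CPM in the standard and at 62.8 and 59.6 CPM in the AHARIBO libraries, both above every standard value. Its log2 fold change was 0.16 (SE 0.082, adjusted p = 0.27). Nhp2 (chr11:51619735-51623714) gave 64.4, 64.4 and 73.1 CPM against 54.4 and 60.4 CPM, below every standard value. With a log2 fold change of -0.22 (SE 0.084, unadjusted p = 0.010, adjusted p = 0.12 by edgeR) it was the member furthest from 0. Nolc1 (chr19:46075863-46085528), the chaperone, was read at 99.7, 96.1 and 103 CPM in the standard and 103 and 107 CPM in the AHARIBO libraries, which overlapped (log2 fold change 0.08, SE 0.078, adjusted p = 0.65).

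Ncl and Npm1 carried the most reads of the 10. Ncl (chr1:86344719-86359400) was read at 354, 330 and 396 CPM in the standard and 356 and 383 CPM in the AHARIBO libraries, and Npm1 (chr11:33152287-33163206) at 292, 268 and 318 CPM against 263 and 289 CPM. Groups overlapped in both genes, with log2 fold changes of 0.04 (SE 0.078, adjusted p = 0.84) and -0.08 (SE 0.079, adjusted p = 0.62). Together they took 47.2% to 51.1% of the members' reads in each library. Gnl3 (chr14:31012433-31019152) was read at 58.9, 58.3 and 54.9 CPM in the standard and 67.0 and 62.7 CPM in the AHARIBO libraries. Both AHARIBO values were above the standard ones, and the log2 fold change was 0.17 (SE 0.082, unadjusted p = 0.037, adjusted p = 0.23 by edgeR).

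The results changed with the treatment of duplicate reads, which the authors removed. Removal took 61.6% to 76.4% of the reads of Npm1 and 51.8% to 65.6% of those of Ncl, against a median of 10.2% and a 95th percentile of 46.9% over the main transcripts of all genes, and 43.3% to 47.7% of the whole libraries. It took most in AHARIBO replicate 1. With duplicates kept, Npm1 stood at 492, 465 and 457 CPM in the standard and 599 and 548 CPM in the AHARIBO libraries. AHARIBO then lay above all standard libraries, with a log2 fold change of 0.28 (SE 0.070) and an adjusted p of 0.048 by edgeR, and 1.34% of main transcripts were called higher in that fit. Ncl moved the same way, to 447, 417 and 451 CPM against 556 and 504 CPM (log2 fold change 0.27, SE 0.072, adjusted p = 0.059 by edgeR). Dkc1 (0.28) and Gnl3 (0.25) also had larger log2 fold changes with duplicates kept than without, neither of them called, with adjusted p of 0.11 and 0.15 by edgeR. With duplicates kept, AHARIBO lay above all standard libraries in 6 members (Ncl, Npm1, Nop58, Dkc1, Nolc1 and Gnl3) and below them in 2 (Fbl and Nhp2), against 2 and 2 with duplicates removed, where 17.5% and 19.7% of all main transcripts did so with duplicates kept. Duplicates made up 10.0% to 14.6% of the reads of Polr1b, the member with the fewest reads per base of coding sequence, and its log2 fold change was -0.02 with duplicates kept. How duplicates were defined, and whether the library kit marked molecules, is not given in the sources used here, so copies made by PCR and independent fragments cannot be told apart in these counts.

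**Figure D2:**
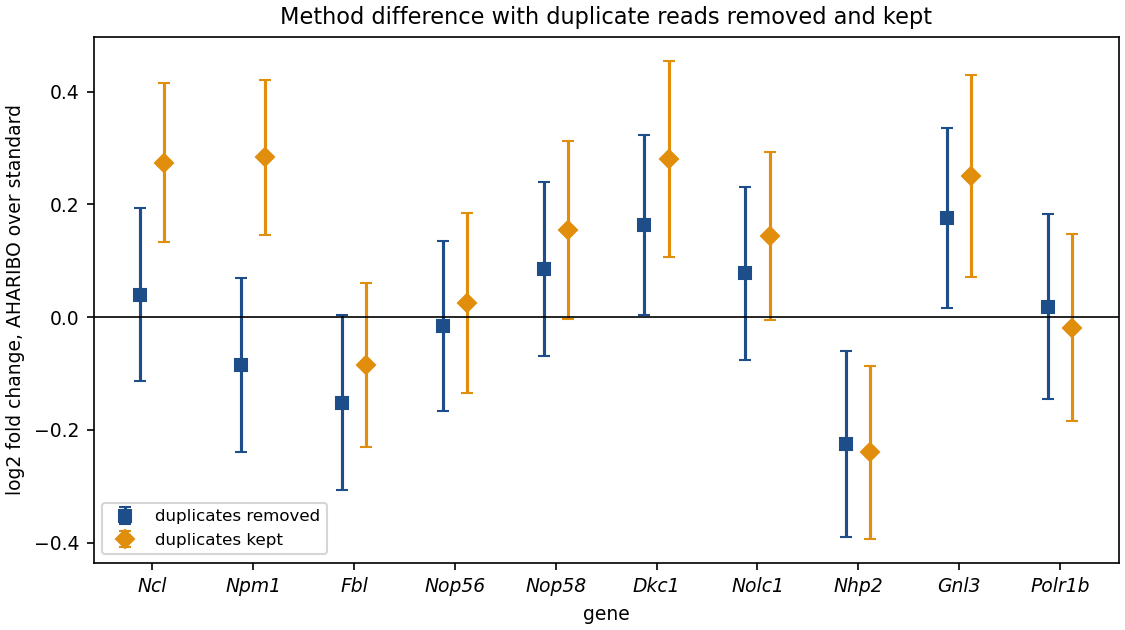
Log2 fold change of AHARIBO over standard for each of the 10 genes with approximate 95% intervals, with duplicate reads removed (squares) and kept (diamonds). With duplicates removed the values lie between -0.22 (Nhp2) and 0.17 (Gnl3), and with duplicates kept Ncl, Npm1, Dkc1 and Gnl3 lie at 0.25 to 0.28.

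Beside the main transcripts the 10 genes have 83 further transcripts, 69 of which contain less than 60% of the coding sequence. All 83 passed the filter on low counts, and edgeR called 2 of them higher in AHARIBO and 1 lower, where 4.51% of all transcripts passed, 2.27% as higher and 2.24% as lower. The lower one was a retained_intron transcript of Fbl (ENSMUST00000207397.1), which contains bases 1 to 352 of the 981-nt coding sequence. It was read at 32.9, 31.8 and 39.98 CPM in the standard and 22.0 and 29.3 CPM in the AHARIBO libraries (log2 fold change -0.44, SE 0.10, adjusted p = 0.0078 by edgeR). Without AHARIBO replicate 1 the log2 fold change was -0.24 (adjusted p = 0.47), in a fit that leaves 1 AHARIBO library, which is then assumed to vary like the standard ones, and without standard replicate 3 it was -0.34 (adjusted p = 0.061), while DESeq2 gave an adjusted p of 0.13. Both higher ones belong to Gnl3, and DESeq2 gave neither an adjusted p. ENSMUST00000227467.1 contains bases 14 to 476 of the 1614-nt coding sequence and was read at 10.4, 10.0 and 10.5 CPM in the standard and 15.4 and 14.0 CPM in the AHARIBO libraries (log2 fold change 0.52, SE 0.13, adjusted p = 0.0094 by edgeR). It remained called without any library except AHARIBO replicate 1, where the adjusted p was 0.25. ENSMUST00000227389.1, with bases 322 to 645, gave 5.60, 5.74 and 4.44 CPM against 8.31 and 7.99 CPM (log2 fold change 0.61, SE 0.17, adjusted p = 0.022), and lost its call without AHARIBO replicate 1 (0.24), standard replicate 1 (0.065) or standard replicate 3 (0.088).

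The shorter transcripts contain different stretches of the coding sequence, but much of their length can lie outside it. In 22 of the 69 less than 50% of the transcript was coding, down to 0.415% in one of Fbl, and the called Gnl3 transcript ENSMUST00000227389.1 was 19.6% coding, so that their fold changes cannot be placed on the coding stretch alone. Over all genes, transcripts with less than 60% of the coding sequence were set against their gene's main transcript. Their median difference in log2 fold change rose from -0.17 in the first 10% of the coding sequence to 0.12 in the last 10%, and from -0.12 to 0.080 among transcripts at least 50% coding. Of the transcripts that lie before the midpoint, 34.1% over all genes and 16 of 30 in the members were above the main transcript. Beyond the midpoint these were 64.2% and 15 of 19. Among transcripts at least 50% coding the shares were 38.4% and 61.7% over all genes, and 11 of 20 and 6 of 9 in the members. In Nop56 all 6 transcripts that lie beyond the midpoint were above the main transcript, with a median difference of 0.28, while 2 of the 3 before the midpoint were above and 1 below. Of the 9 Nop58 transcripts before the midpoint 6 were below the main transcript and 3 above (median -0.20), but of the 5 that were at least 50% coding 2 were below and 3 above (median 0.03). All 3 transcripts of Fbl before the midpoint, 2 of them at least 50% coding, and all 3 of Nolc1 were below their main transcript, and both 3′ transcripts of Npm1 were above theirs, by a median of 0.29, although neither of these was 50% coding. In Gnl3 the differences had the opposite order: its 7 transcripts of the front of the coding sequence were at or above the main transcript (median difference 0.20) and its 4 of the back were below it (median -0.14). In Dkc1 3 of the 4 transcripts of the front and that of the back were above, and in Ncl, where none was 50% coding, all 4 were above by 0.17 or less. Transcripts of a gene share reads, so these counts are not independent observations.

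**Figure D3:**
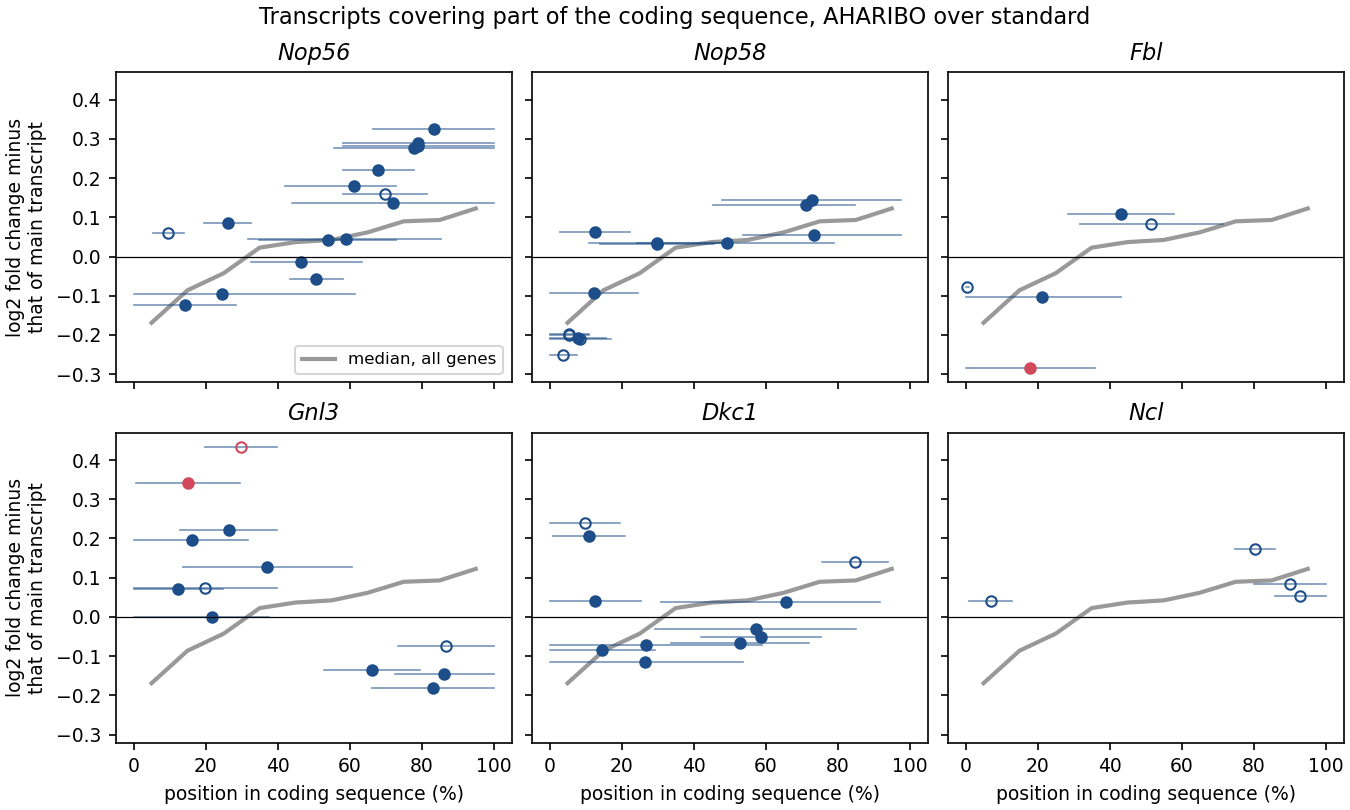
Difference between the log2 fold change (AHARIBO over standard) of each shorter transcript and that of its gene's main transcript, against the mean position of its bases in the coding sequence (%), for 6 genes. Horizontal lines give the stretch contained, open points are transcripts less than 50% coding, red points have an adjusted p under 0.05 for the transcript's own fold change, and the grey line is the median over all genes in steps of 10%, which rises from -0.17 to 0.12.

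A test of the ratio itself was possible in 5 members, those with a transcript on either side of the middle, and in 2442 genes in all. In Nop56 the ratio of reads on the 3′ transcript (bases 967 to 1740) to those on the 5′ transcript (bases 4 to 493) was 0.629, 0.576 and 0.729 in the standard and 0.917 and 0.766 in the AHARIBO libraries, higher in both AHARIBO libraries than in any standard one. The log2 change of the ratio was 0.41 (SE 0.11, adjusted p = 0.030 by edgeR's interaction test), where 3.36% of genes were called in that direction, 0.0819% in the other, and the median change was 0.19. With transcripts at least 50% coding 13 genes were called higher and 1 lower, against 82 and 2. The 5′ transcript ends just before base 499, where the second methionine codon of Nop56 begins. The call was lost without AHARIBO replicate 1 (log2 change 0.27, adjusted p = 0.56), AHARIBO replicate 2 (0.53, 0.059), standard replicate 1 (0.40, 0.090) or standard replicate 2 (0.33, 0.10), with duplicates kept (0.29, 0.23), with transcripts at least 50% coding (0.41, 0.054) and with limma on log2 ratios (0.39, 0.48), but the sign stayed.

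For Nop58 the 3′ to 5′ ratio was 0.847, 0.856 and 0.647 in the standard and 1.05 and 0.870 in the AHARIBO libraries. AHARIBO lay above all standard libraries, as in 27.3% of genes, and the log2 change of 0.26 (SE 0.12) had an adjusted p of 0.23 by edgeR. In Dkc1 the ratio was 0.634, 0.525 and 0.563 against 0.694 and 0.640 (log2 change 0.22, SE 0.16, adjusted p = 0.52). Ncl, with transcripts 39.0% and 40.3% coding, was nearly level, at 0.953, 0.909 and 0.904 against 0.949 and 0.952 (log2 change 0.04, SE 0.092, adjusted p = 0.86). The ratio of Gnl3 was 0.567, 0.597 and 0.478 in the standard and 0.430 and 0.540 in the AHARIBO libraries, the only one of the 5 with a lower AHARIBO mean, and these groups overlapped, where 6.14% of genes had AHARIBO below all standard libraries (log2 change -0.21, SE 0.14, adjusted p = 0.46). None of these 4 passed the test. Like that of Nop56, the 5′ transcript of Dkc1 (bases 1 to 448) ended before the second methionine codon, here at base 610. Those of Nop58 (bases 1 to 250), Ncl (19 to 276) and Gnl3 (1 to 642) contained theirs, at bases 190, 49 and 37. Whether the place of the methionine codons has a part in these ratios was not tested.

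Of the snoRNAs inside the members' introns, those that reached 1 CPM in a library were 3: Snora75 in Ncl, and Gm24451 and Gm23650 in Nop56. Their whole sequences follow, as they are RNAs without a coding sequence that have reads in these libraries. They are from Gencode M21 (GRCm38), 5′ to 3′, with ACA in capitals where it stands 3 bases before the end, the hallmark of H/ACA snoRNAs, and CTGA, the D box of C/D snoRNAs, where it falls in the last 20 bases.
Snora75, chr1:86351169-86351301, minus strand: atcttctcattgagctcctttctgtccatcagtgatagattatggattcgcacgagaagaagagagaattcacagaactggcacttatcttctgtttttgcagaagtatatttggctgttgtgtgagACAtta
Gm24451, chr2:130276237-130276369, plus strand: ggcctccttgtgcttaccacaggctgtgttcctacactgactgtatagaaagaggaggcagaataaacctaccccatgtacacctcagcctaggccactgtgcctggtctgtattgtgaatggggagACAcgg
Gm23650, chr2:130277697-130277766, plus strand: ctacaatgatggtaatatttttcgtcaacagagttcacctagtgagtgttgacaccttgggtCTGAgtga
Of 1507 snoRNA transcripts, 18.3% hold ACA at that place and 35.4% CTGA in that stretch.

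Reads on these guide RNAs were few, and whether ribosomes protected them was not tested. Gm24451 and Gm23650 reached 1 CPM in AHARIBO libraries only, so they entered the test through the method in which they were high, and their values are a description. Snora75 reached it with both methods. Snora75 was read 8, 13 and 2 times in the standard and 29 and 24 times in the AHARIBO libraries, or 0.896, 1.43 and 0.317 against 2.54 and 2.40 CPM. Its log2 fold change was 1.37 (SE 0.37, adjusted p = 0.019 by edgeR), and DESeq2 gave it no adjusted p. Gm24451 was read 3, 2 and 1 times against 13 and 14 times (log2 fold change 2.29), and Gm23650 7, 8 and 5 times against 13 and 17 times (log2 fold change 0.76). Over all snoRNAs and scaRNAs tested, 35.6% were called higher (64 of 180) and 0 lower by edgeR, with 132 higher and 0 lower at an unadjusted p of 0.05. Of the 180, 86 had reached 1 CPM in AHARIBO libraries only (35 of them called) and 94 with both methods (29 called, median log2 fold change 0.59). Without the filter on low counts 89 of 480 were higher and 0 lower (178 and 0 at an unadjusted p of 0.05), and Snora75 had an adjusted p of 0.0051 by edgeR. Leaving out a library kept the sign of Snora75. Of 11 alternatives 5 left it without the call, among them the fit without AHARIBO replicate 1. Its adjusted p by edgeR was 0.086 without standard replicate 1, 0.095 without standard replicate 3 and 0.092 with duplicates kept.

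By host, the 5 snoRNAs of Nop56 summed to 14, 17 and 10 reads in the standard and 40 and 45 in the AHARIBO libraries, beside a log2 fold change of -0.02 for the mRNA of Nop56. The 3 of Ncl gave 13, 16 and 2 reads against 41 and 37. The 4 of Nop58 had 0 to 2 reads in standard and 3 and 6 in AHARIBO libraries, the 3 of Gnl3 had 3 to 4 against 6 and 9, and that of Dkc1 had none in any library, which allows up to 3 reads. Altogether the 16 snoRNAs stood at 2.54 to 4.08 CPM in the standard and 7.87 and 9.69 CPM in the AHARIBO libraries. Of the 9 with at least 10 reads over all libraries, 5 had both AHARIBO libraries above every standard library, as did 68.5% of all snoRNAs and scaRNAs with that many reads. Counts this low allow no finer comparison of the hosts.

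**Figure D4:**
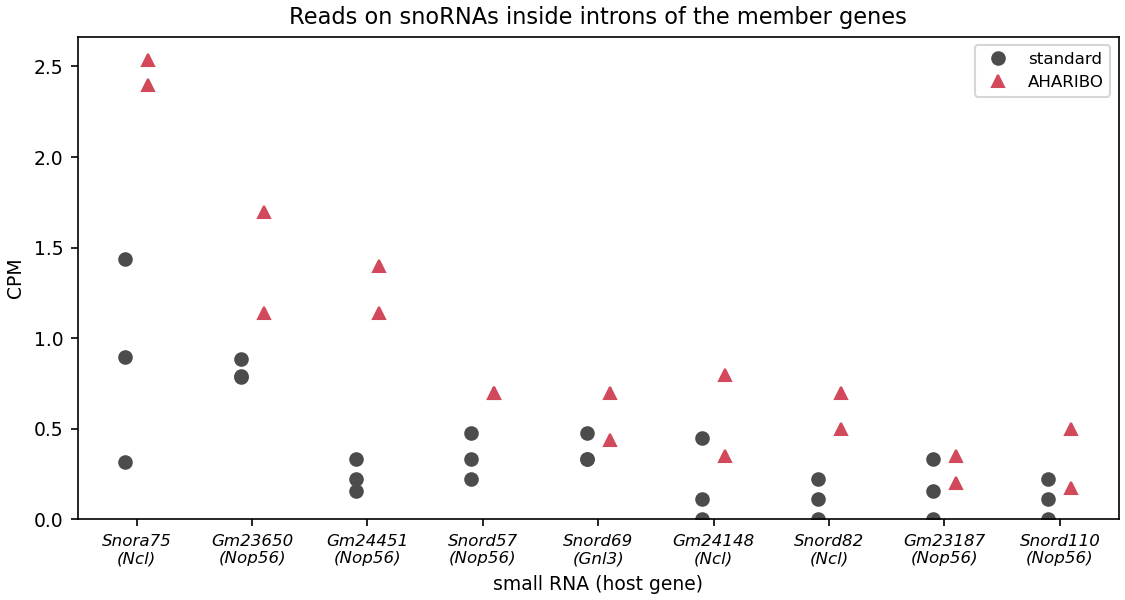
CPM of the 9 snoRNAs in introns of member genes that had at least 10 reads over the 5 libraries, 3 standard (circles) and 2 AHARIBO (triangles), with the host gene in brackets. The AHARIBO libraries lie above all standard libraries for Snora75, Gm23650, Gm24451, Snord57 and Snord82, at levels of 2.54 CPM or less.

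Other genes of ribosome biogenesis were examined in 5 lists, 131 genes in all, each by its main transcript. Of these, edgeR called 7 higher and 3 lower in AHARIBO, against 2.59% and 2.53% of all main transcripts, and the median log2 fold change was 0.04. Of 14 genes of polymerase I transcription, 1 rose: Taf1d, a subunit of the promoter selectivity factor, from 9.11 ± 0.892 CPM (SD, n = 3) to 13.5 ± 0.597 CPM (SD, n = 2), or by 0.54 on the log2 scale (adjusted p = 0.0091 by edgeR). Of 51 genes of 60S assembly and export 3 rose, among them Noc3l (24.6 ± 2.40 to 32.9 ± 1.67 CPM, log2 fold change 0.41, adjusted p = 0.0058) and the GTPase Efl1, which acts on cytoplasmic pre-60S particles (13.8 ± 1.16 to 18.8 ± 1.68 CPM, 0.43, adjusted p = 0.019), the other being Mdn1. Of 43 genes of the small subunit processome and 40S maturation, 3 rose, Krr1 (20.9 ± 1.39 to 27.4 ± 3.31 CPM, 0.39, adjusted p = 0.017), Dnttip2 (37.3 ± 3.07 to 46.3 ± 1.03 CPM, 0.31, adjusted p = 0.029) and Utp15.

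The 3 that fell came from the other lists. Naf1, an assembly factor of the H/ACA particles to which Dkc1 and Nhp2 belong, went from 55.1 ± 2.73 to 42.2 ± 0.376 CPM (log2 fold change -0.39, adjusted p = 0.0036 by edgeR), the only call among 11 snoRNP partners and assembly factors, whose median was -0.10. Exosc4 (27.1 ± 0.732 to 20.9 ± 0.104 CPM, -0.38, adjusted p = 0.017) and Exosc6 (19.5 ± 2.39 to 14.6 ± 0.879 CPM, -0.42, adjusted p = 0.026), subunits of the RNA exosome ring, were the calls among 12 exosome genes. Without AHARIBO replicate 1 none of the 131 genes passed, with Taf1d at a log2 fold change of 0.59 (adjusted p = 0.056) and Naf1 at -0.38 (adjusted p = 0.058). The log2 fold change of Krr1 was then 0.25 (adjusted p = 0.50), that of Efl1 0.33 (0.39), Noc3l 0.36 (0.16), Dnttip2 0.33 (0.13), Exosc4 -0.37 (0.19) and Exosc6 -0.48 (0.10). Leaving out standard replicate 1 gave 4 higher and 0 lower, leaving out standard replicate 3 gave 2 higher and 3 lower, and DESeq2 called 1 (Naf1, adjusted p = 0.049) and gave Taf1d no adjusted p.

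**Figure D5:**
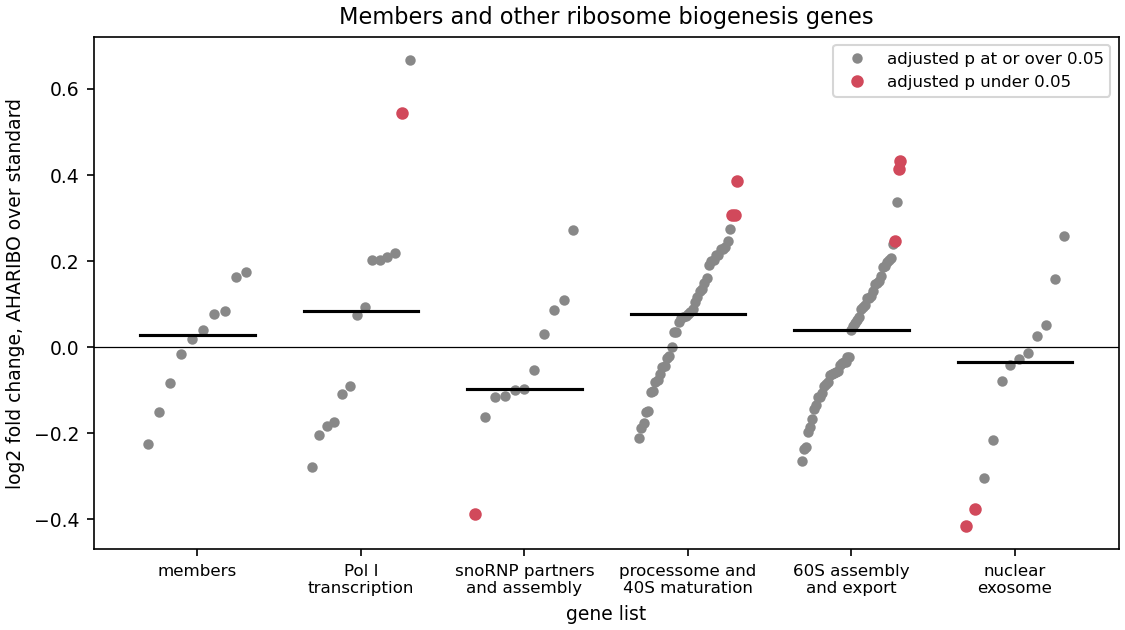
Log2 fold change of AHARIBO over standard for the 10 members and the 5 lists of other ribosome biogenesis genes, 1 point per gene, sorted within each list, with the median as a black line. Red points have an adjusted p under 0.05 by edgeR, 7 above 0 and 3 below, and no member is among them.

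The mRNAs of cytosolic ribosomal proteins, the building blocks of the same particles, gave other counts. Of 84 such genes 0 were higher and 20 lower in AHARIBO (23.8%), where 2.53% of all main transcripts were lower. The median log2 fold change of the 84 was -0.20, beside 0 and 0 called and a median of 0.03 for the members. Their summed level was 11599 to 13255 CPM in the standard and 10015 and 11454 CPM in the AHARIBO libraries. At an unadjusted p of 0.05 by edgeR, 50 were lower and 0 higher, where 9.53% of all main transcripts were lower. DESeq2 called 0, as did edgeR without AHARIBO replicate 1 or standard replicate 3, and it called 1 without standard replicate 1 and 40 without AHARIBO replicate 2. Members and ribosomal protein genes were not compared in a test.

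The genes whose main transcripts most resembled the members over the 5 libraries were Nap1l1, Pdlim1, Tcea3, Arf1 and Pir, with Pearson's r between 0.967 and 0.990 of log2(CPM + 1) with the members' mean, among 5795 genes at 10 CPM or more. The members' mean itself moved by only 0.074 between the lowest and the highest library, and the 5 libraries are few, so the likeness is a description of small differences between libraries.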

How the data were processed

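Ribosome-protected reads of mESCs were taken from 3 standard and 2 AHARIBO RIBO-seq libraries, grouped by the submitters' labels. The deposited values are raw counts of reads per transcript, with duplicates removed (used here) and with duplicates kept (an alternative). Per the methods, the authors trimmed reads (Trimmomatic 0.36), removed rRNA and tRNA reads, aligned to Gencode M17 transcripts with STAR and removed antisense and duplicate reads. Of 135276 transcripts, 99.8% matched Gencode M21 (GRCm38), which gave symbols, positions and coding sequences. Protein tables were not used here, so codons came from these coding sequences. The number of per-sample columns not used was 0.

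CPM (counts per library total, with TMM factors over all transcripts) were computed from the counts. Transcripts that reached 1 CPM in 1 or more libraries were tested with edgeR 4.0.16 (quasi-likelihood, R 4.3.3), AHARIBO against standard, with p-values adjusted over all 66972, and with DESeq2 1.42.0 as an alternative. Intervals are log2 fold change ± 1.96 SE, and intervals and floors cover counting and library spread only. The 3′ to 5′ test was the interaction of method and transcript in the same model, added after the data were seen, as were the counts of small RNAs. The edgeR, DESeq2 and 3′ to 5′ tests were tested on simulated counts, drawn separately for each transcript. They recovered 100%, 97% and 83.5% of the planted 2-fold changes. Changes as small as those of the members, and reads shared between transcripts, were not simulated. Neither limma nor the replicate block was tested in this way. Whether equal replicate numbers mark paired libraries could not be told here, and the main fit did not pair them. Other alternatives were library size, RLE factors, other filters, other transcripts, the replicate block and leaving out each library. Where an AHARIBO library is left out, the spread comes from the standard libraries alone. The p-values measure the spread between these samples.

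The members and lists were chosen with earlier results of these data known. All 10 members are named. Of the other biogenesis genes, up to 5 per direction that passed 0.05 and whose groups did not overlap are named with values, and any others were chosen after their values were seen. Likeness was ranked among genes outside the lists with a mean of at least 10 CPM.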

Additional observations from a re-analysis of the deposited data

How the results depend on the processing

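With duplicates removed, 0 members were called higher or lower under every alternative run, and with duplicates kept 1 was higher (Npm1). Sign changes without a call were small: Nop56 was at 0.025 with duplicates kept, 0.018 with library size and 0.0074 with protein_coding transcripts summed, and Polr1b at -0.019, -0.011 and -0.0076 with duplicates kept, the replicate block and transcripts summed. With a library left out, Ncl ranged from -0.019 to 0.11, Nop56 from -0.038 to 0.00054 and Polr1b from -0.010 to 0.065. The others kept their sign. Npm1 ranged from -0.15 to -0.016, Fbl from -0.23 to -0.075 and Nhp2 from -0.30 to -0.15. Nop58 ranged from 0.015 to 0.15, Nolc1 from 0.051 to 0.10, Dkc1 from 0.12 to 0.20 and Gnl3 from 0.12 to 0.22. Npm1 turned to 0.28 with duplicates kept, and the 3′ to 5′ change of Ncl to -0.0013. With transcripts at least 50% coding, the median difference of the 5′ transcripts turned to 0.031 in Nop58 and -0.019 in Nop56. The correlation of deviations was 0.035 for the first pair of equal replicate numbers and -0.094 for the second. With 2 AHARIBO libraries their deviations mirror each other, so these values cannot show whether equal numbers are paired. With the replicate block the other biogenesis genes gave 2 higher and 3 lower, the ribosomal proteins 0 lower and the further member transcripts 2 higher and 0 lower, but not Gnl3 ENSMUST00000227389.1 (0.52, adjusted p = 0.097).

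The other biogenesis genes called higher numbered 7, against 0 with DESeq2 (which gave Taf1d no adjusted p), 2 with duplicates kept, 12 with library size and 0 to 9 with a library left out. Those called lower numbered 3, against 1 with DESeq2 and 0 to 4 with a library left out. Ribosomal proteins called lower numbered 20, against 0 with DESeq2, 5 with duplicates kept, 13 with library size and 0 to 40 with a library left out. Further member transcripts called higher numbered 2, against 0 with DESeq2 (which gave both no adjusted p), 8 with duplicates kept, 6 with library size and 0 to 4 with a library left out, and those lower 1, against 0 with DESeq2 and duplicates kept and 0 to 1 with a library left out. The genes called for the 3′ to 5′ ratio numbered 82 higher and 2 lower. They were 13 and 1 with transcripts at least 50% coding, 0 and 0 with limma on log2 ratios, 118 and 8 with duplicates kept, and 0 to 85 and 0 to 4 with a library left out. The members' share differed by 0.0110 percentage points, and by 0.108 with duplicates kept. Without AHARIBO replicate 2 or standard replicate 2 the sign of the first difference turned. The span of levels was 14.8 times per kb of transcript, 22.0 per kb of coding sequence and 39.4 with duplicates kept. The causes were not tested. The number of libraries and, for the small RNAs, counts of at most 29 reads limit the precision.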
